A study of Mus musculus with 6 samples.

Results

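The insulin-like growth factor (IGF) genes were followed in the uterus of 2-week-old mice with and without deletion of Arid1a. The set was given as 10 genes: the ligands Igf1 and Igf2, the receptors Igf1r and Igf2r, and the binding proteins Igfbp2 to Igfbp7. Every probe set whose annotation held exactly 1 gene symbol equal to a member was taken, which gave 26 of the 41420 probe sets in the table and 9 of the 10 genes. Igfbp6 was not analysed here. Arrays of 3 Arid1a d/d uteri were compared with arrays of 3 Arid1a f/f uteri, all from intact females. In the usual notation d marks a deleted allele and f a floxed one, so the f/f samples carry the conditional allele too; the Cre driver is not given in the sources used here. Nothing in the labels ties each array to its own animal, so the p-values cover only the spread among these 6 samples, part of which may be technical.

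IGF1 and IGF2 are small secreted growth factors related to insulin. Both signal through the IGF1 receptor, a tyrosine kinase, whereas the IGF2 receptor takes up IGF2 for breakdown in lysosomes. The IGF binding proteins hold the ligands outside the cell, lengthen their life and either block or deliver them, and IGFBP7 is a more distant relative that binds IGFs weakly. In the rodent uterus, Igf1 is a classical estrogen-responsive gene of the stroma whose product acts on the epithelium. Igf2 and Igf2r are imprinted in the mouse, Igf2 being expressed from the paternal and Igf2r from the maternal allele in most tissues.

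Promoter sequence is shown for Igfbp7, Igf1 and Igfbp4, the genes with more than 1 probe set whose brightest probe set had every d/d array below every f/f array. Each line gives the 250 bases before a RefSeq transcript start on GRCm38.p6, 5′ to 3′ on the gene's strand. Capitals mark matches on either strand to TATAAA (the TATA box), GGGCGG (the GC box) or TGANTCA. The last is a loose form of the AP-1 site that allows any base at its centre. No matches overlapped in these windows.
Igfbp7, chr5:77408046-77408295, minus strand: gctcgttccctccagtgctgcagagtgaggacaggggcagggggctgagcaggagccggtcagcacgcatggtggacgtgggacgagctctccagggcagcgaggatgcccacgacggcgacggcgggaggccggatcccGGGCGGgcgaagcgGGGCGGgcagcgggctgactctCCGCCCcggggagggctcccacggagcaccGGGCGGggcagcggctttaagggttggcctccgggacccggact
Igf1, chr10:87860861-87861110, plus strand: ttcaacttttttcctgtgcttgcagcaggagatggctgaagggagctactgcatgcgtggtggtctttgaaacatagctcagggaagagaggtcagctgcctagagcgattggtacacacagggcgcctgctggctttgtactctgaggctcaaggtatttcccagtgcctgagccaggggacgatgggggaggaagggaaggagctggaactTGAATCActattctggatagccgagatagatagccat
Igfbp4, chr11:99040994-99041243, plus strand: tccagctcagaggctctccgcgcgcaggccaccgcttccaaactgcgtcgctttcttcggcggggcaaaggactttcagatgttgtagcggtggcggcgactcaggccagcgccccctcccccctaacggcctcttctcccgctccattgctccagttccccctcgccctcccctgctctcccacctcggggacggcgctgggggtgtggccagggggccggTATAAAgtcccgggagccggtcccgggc
The Igfbp7 window held 4 GC boxes, beginning 110, 96, 74 and 44 bases before the start. The Igfbp4 window held 1 TATA box, 28 bases before the start. The Igf1 window held 1 match to the loose AP-1 form, with A at its centre, 37 bases before the start. A GC box was found in 32.7% of all 32851 windows of the same length, a TATA box in 12.4% and an AP-1 match in 6.75%. GC content was 74% for Igfbp7, 69.2% for Igfbp4 and 52.8% for Igf1, against a median of 52.4% over all windows. All 10 genes had at least 1 window, 14 in all. GC boxes also stood in windows of Igf2, Igf1r, Igf2r and Igfbp2, an AP-1 match in a window of Igfbp2 and a TATA box in a window of Igfbp6, so none of the 3 motifs was peculiar to 1 gene. A match is a run of letters and not a measured binding site.

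Levels are given as log2 of the deposited intensity, and every difference is d/d minus f/f on that scale. Array medians ran from 6.34 to 6.59 in linear intensity, and arrays correlated at 0.987 to 0.995 over all probe sets. Array d/d 1 stood apart from its group: it correlated at 0.9901 with d/d 2, 0.9905 with d/d 3 and between 0.9911 and 0.9946 with the f/f arrays. Calls of IGF genes and of the pathway genes named below that change without it are given both ways. Arid1a had levels of 6.98, 7.07 and 7.04 in d/d uteri and 7.54, 7.58 and 7.71 in f/f uteri, a difference of -0.58 ± 0.09 (SE). The uterine hormone receptors were present, with Esr1 at means of 10.74 in d/d and 10.80 in f/f and Pgr at 9.18 and 9.46. In whole tissue, fewer cells of a type and less RNA per cell cannot be told apart.

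Igfbp7 was the 1 IGF gene that passed the test, and it was lower in d/d uteri. Most of the others had smaller values in d/d too, without passing: 22 of the 26 probe sets had a negative difference and 4 a positive one, with a median of -0.29 against -0.0041 over all probe sets. The test was limma's moderated test with Benjamini-Hochberg adjustment over all 41420 probe sets, at a threshold of 0.05. It called 1 of the 26, lower, against 0.210% of all probe sets called lower and 0.524% called in either direction. By gene, each taken by its brightest probe set, it called 1 of 9, lower, against 0.512% of all 16813 genes called lower and 1.14% called in either direction.

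The d/d arrays were all below the f/f arrays in 14 of the 26 probe sets and all above them in 0. Over the whole table they were all below in 7.47% of probe sets and all above in 6.67%. Of the 20194 probe sets brighter than the table's median of 2.69 in both genotypes, as 25 of the 26 were, they were all below in 9.01%. The 14 are not independent: 6 belong to Igfbp4, 4 to Igf1, 2 to Igfbp7 and 1 each to Igf2 and Igfbp5. By gene the count was 4 of 9, against 9.42% of all genes.

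**Figure D1:**
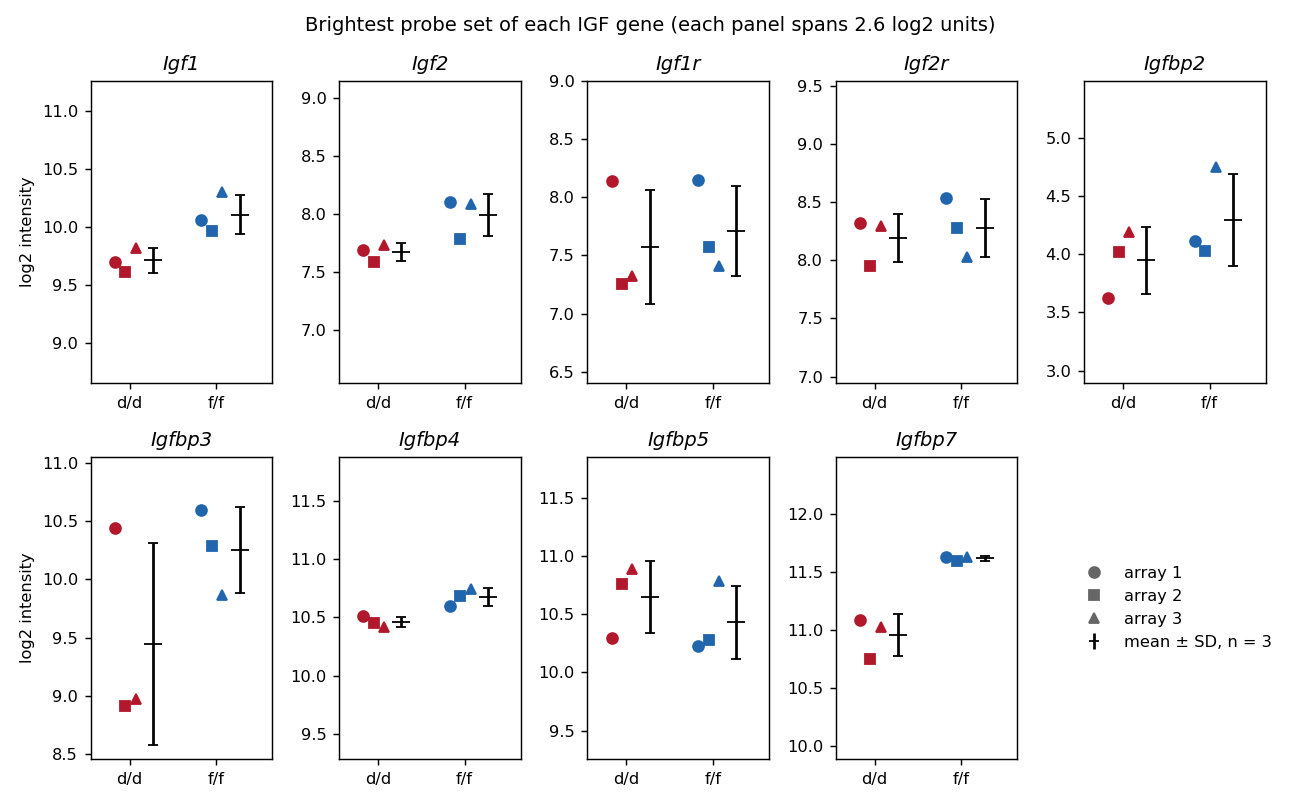
Log2 intensity of the brightest probe set of the 9 measured IGF genes in 3 d/d arrays (red, left) and 3 f/f arrays (blue, right), with mean and SD; marker shape gives the array number. The d/d and f/f points separate for Igf1, Igf2, Igfbp4 and Igfbp7, while for Igfbp3 and Igf1r the d/d 1 point lies with the f/f points.

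Among the ligands, the brightest Igf1 probe set, 1437401_at, had log2 levels of 9.70, 9.61 and 9.82 in d/d uteri, against 10.06, 9.96 and 10.30 in f/f uteri. The highest d/d array lay below the lowest f/f array, but the difference of -0.39 ± 0.11 (SE) did not pass (95% interval -0.65 to -0.14; limma adjusted p = 0.239). On the linear scale the d/d level was 0.761 times that of f/f. The other 3 Igf1 probe sets gave -0.35, -0.41 and -0.21, and all 4 had groups that did not overlap. The adjusted p of the 4 ran from 0.191 to 0.551.

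Igf2 has 1 probe set, which had log2 levels of 7.69, 7.58 and 7.73 in d/d uteri, against 8.10, 7.78 and 8.08 in f/f uteri. The gap between the groups was narrow, since d/d 3 and f/f 2 stood at 7.73 and 7.78. The difference was -0.32 ± 0.11 (SE) and did not pass (95% interval -0.57 to -0.07; limma adjusted p = 0.361). Igf1 and Igf2 followed one another across arrays more closely than any other 2 of the 9 genes did: after centring each on its own mean, they differed by 0.0809 log2 units on average over the 6 arrays. Next by this measure were Igf2 with Igfbp4, at 0.125, and Igf1 with Igfbp4, at 0.131. By correlation over the 6 arrays Igf1 and Igf2 also had the highest value, at 0.917, and Igf1 with Igfbp7 came next, at 0.889. Igf2 correlated at 0.860 with Igfbp7 and at 0.699 with Igfbp4.

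Neither receptor showed a difference that could be told from the spread of the arrays. The brightest Igf1r probe set, 1452982_at, stood at 8.14, 7.26 and 7.33 in d/d uteri, against 8.15, 7.57 and 7.41 in f/f uteri. Array 1 was the highest of both genotypes, and the groups overlapped over nearly their whole range. The difference was -0.13 ± 0.26 (SE), with a 95% interval of -0.74 to 0.47 that reaches both sides of 0 (limma adjusted p = 0.926). Of the 5 Igf1r probe sets 3 gave positive and 2 negative differences, from -0.20 to 0.11. Of the positive ones 1452108_at, at 0.04, was dimmer than the table's median in d/d and f/f alike. Probe set 1446303_at, at 0.11, had a mean level of 2.97, not far above that median. The remaining positive one, 1428967_at, gave 0.02.

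Igf2r, which clears IGF2, had log2 levels of 8.32, 7.95 and 8.29 in d/d uteri, against 8.53, 8.27 and 8.03 in f/f uteri by its brighter probe set. The groups overlapped, and the difference was -0.09 ± 0.15 (SE; 95% interval -0.44 to 0.26; limma adjusted p = 0.910). The other probe set gave -0.13 ± 0.12 (SE). A further probe set is annotated to both Igf2r and Airn, the noncoding RNA antisense to it, and was left out because its signal cannot be assigned to either gene.

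The binding proteins differed among themselves. Igfbp7, a secreted protein made by blood vessels and stroma in many tissues, had log2 levels of 11.09, 10.75 and 11.03 in d/d uteri, against 11.63, 11.59 and 11.63 in f/f uteri by its brightest probe set, 1423584_at. The f/f arrays spanned 0.039 and the highest d/d array lay 0.50 below the lowest of them. The difference of -0.66 ± 0.11 (SE) passed (95% interval -0.90 to -0.41; limma adjusted p = 0.0465 over probe sets and 0.0389 over genes). On the linear scale the d/d level was 0.633 times that of f/f.

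The Igfbp7 call was close to the threshold. A second probe set, 1423585_at, stood at 5.82, 5.09 and 5.16 in d/d uteri, against 6.33, 6.18 and 6.17 in f/f uteri, again without overlap. Its difference of -0.87 ± 0.18 (SE) was larger but did not pass (limma adjusted p = 0.112). Without d/d 1 this second probe set passed, at -1.10 (adjusted p over probe sets 0.0028). The third, 1437804_at, had means of 4.06 in d/d and 4.09 in f/f and a difference of -0.03 ± 0.10 (SE), and the mean of the 3 probe sets gave -0.52 (limma adjusted p over genes 0.0615, against 0.0165 to 0.0401 under the other settings that kept all arrays). With 1 array left out the brightest probe set passed in 1 of 6 fits, the one without d/d 1 (-0.73; adjusted p over genes 0.0124). Without d/d 2, d/d 3, f/f 1, f/f 2 or f/f 3 the adjusted p over genes was 0.103, 0.117, 0.116, 0.149 and 0.151, with differences of -0.69 to -0.56.

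Igfbp4, which in general restrains IGF action until a protease cleaves it, was read by 6 probe sets. Its brightest probe set, 1437405_a_at, had log2 levels of 10.51, 10.45 and 10.42 in d/d uteri, against 10.60, 10.68 and 10.75 in f/f uteri. The groups were close but did not overlap, and the difference of -0.21 ± 0.08 (SE) did not pass (95% interval -0.41 to -0.02; limma adjusted p = 0.453). All 6 Igfbp4 probe sets had d/d arrays below f/f arrays, with differences from -0.40 to -0.21, and the lowest adjusted p was 0.287. Because they read the same transcripts, they count as 1 gene.

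Igfbp3, the main carrier of IGFs in the circulation, had the largest difference of any member and the widest spread. Its brighter probe set, 1423062_at, stood at 10.44, 8.91 and 8.97 in d/d uteri, against 10.60, 10.29 and 9.87 in f/f uteri. Array d/d 1 lay within the f/f range, while d/d 2 and d/d 3 lay well below the lowest f/f array. The difference was -0.81 ± 0.39 (SE) and did not pass (95% interval -1.70 to 0.08; limma adjusted p = 0.558).

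The other Igfbp3 probe set had log2 levels of 9.12, 7.48 and 7.83 in d/d uteri, against 9.39, 9.23 and 8.59 in f/f uteri, a difference of -0.93 ± 0.40 (SE; limma adjusted p = 0.494). Without d/d 1 both passed, at -1.31 (adjusted p over genes 0.00941) and -1.41 (adjusted p over probe sets 0.0172). Without any 1 of the other 5 arrays the brighter probe set had an adjusted p over genes of 0.517 to 0.926. The fit without d/d 1 called 4 of the 26 member probe sets, 2 of Igfbp3 and 2 of Igfbp7, all lower. Over the whole table it called 1.35% of probe sets lower and 2.34% in either direction.

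Igfbp5, a binding protein that also attaches to extracellular matrix, gave unlike answers by its probe sets. The bright one, 1452114_s_at, stood at 10.30, 10.76 and 10.89 in d/d uteri, against 10.23, 10.28 and 10.79 in f/f uteri, a difference of 0.22 ± 0.19 (SE; 95% interval -0.23 to 0.66; limma adjusted p = 0.804). The dimmer one, 1422313_a_at, stood at 4.94, 4.98 and 4.91 in d/d uteri, against 5.13, 5.32 and 5.90 in f/f uteri, a difference of -0.51 ± 0.18 (SE; limma adjusted p = 0.374). The first had overlapping groups and the second did not, and the mean of both gave -0.15, so no direction can be given for the gene. With 1 array left out the bright probe set ranged from 0.098 without d/d 3 to 0.40 without f/f 3, with 0.39 without d/d 1, and the dimmer one from -0.67 to -0.28.

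Igfbp2 is measured by 1 probe set at a low level, 3.63, 4.02 and 4.20 in d/d uteri, against 4.11, 4.03 and 4.75 in f/f uteri. The groups overlapped, and the difference was -0.35 ± 0.21 (SE; 95% interval -0.84 to 0.14; limma adjusted p = 0.676). The highest value was that of f/f 3, and leaving out that array took the difference to -0.12. Leaving out d/d 1 took it to -0.19, and leaving out f/f 2 to -0.48.

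**Figure D2:**
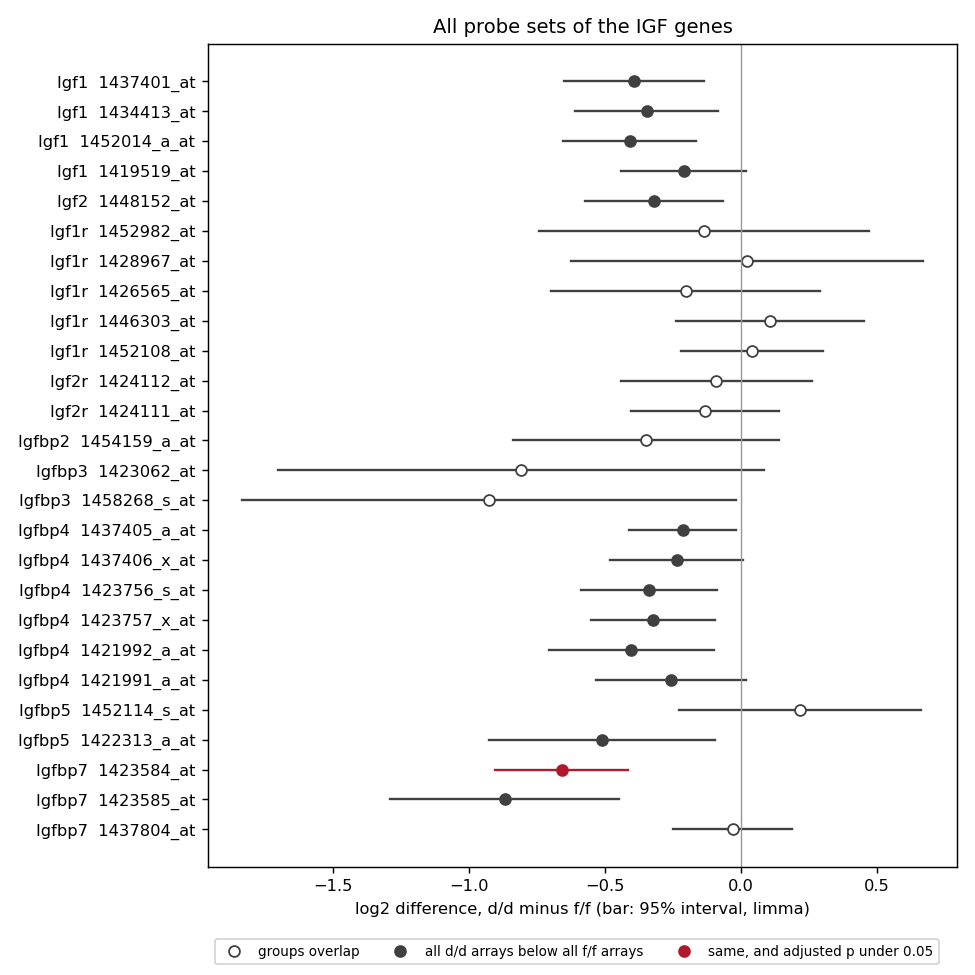
Log2 difference (d/d minus f/f) with its 95% interval for all 26 probe sets of the 9 measured IGF genes. Filled points have every d/d array below every f/f array (14 probe sets), and the red point, Igfbp7 at -0.66, is the 1 that passed.

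Across arrays the members fell into unlike patterns. Igfbp7, Igf1, Igf2 and Igfbp4 separated by genotype. Igfbp3 and Igf1r were highest in d/d 1 and f/f 1 and correlated at 0.856 over the 6 arrays. Igfbp5 by its bright probe set ran the other way, at -0.891 with Igfbp3 and -0.844 with Igf1r. These correlations describe 6 arrays that share genotype and tissue make-up, and no test was made of them.

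Some marker lists shared part of these patterns. The mean log2 level of 6 measured endothelial genes was 6.21, 5.60 and 5.83 in d/d 1, 2 and 3, against 6.53, 6.34 and 6.46 in f/f 1, 2 and 3. All 6 had a negative difference and 0 passed over genes. The mean of 13 stromal genes was 9.65, 9.35 and 9.40 in d/d uteri, against 9.77, 9.73 and 9.91 in f/f uteri. All 13 had a negative difference and 1 passed, Thy1. The mean of 6 fat cell genes was 5.54, 4.60 and 4.79 in d/d uteri, against 5.93, 5.78 and 6.51 in f/f uteri, again with all 6 negative and 0 passing. The mean of 8 smooth muscle genes was 7.92, 7.37 and 7.62 in d/d uteri, against 7.95, 7.70 and 7.90 in f/f uteri, with 7 negative, 1 positive and 0 passing. In all 4 of these lists d/d 1 was the highest and d/d 2 the lowest of the d/d arrays, as for Igfbp7 by its brightest probe set. Among the d/d arrays Igf1 and Igf2 were, by their brightest probe sets, also lowest in d/d 2 but highest in d/d 3. Igf1 probe set 1419519_at was instead lowest in d/d 1 and highest in d/d 2. Igfbp4 was lowest in d/d 3 by its brightest probe set. By others, such as 1423756_s_at at 9.67, 9.46 and 9.59 in d/d 1, 2 and 3, Igfbp4 was lowest in d/d 2. The mean of 7 leukocyte genes was 4.92, 4.81 and 4.79 in d/d uteri, against 4.90, 4.91 and 4.91 in f/f uteri, with 4 negative, 3 positive and 0 passing.

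The mean of 9 cell cycle genes was 5.16, 6.94 and 6.70 in d/d 1, 2 and 3, against 5.52, 5.66 and 6.51 in f/f 1, 2 and 3. Arrays low for these genes, d/d 1, f/f 1 and f/f 2, were those high for Igfbp3 and low for the bright Igfbp5 probe set. All 9 cell cycle genes had a positive difference and 0 passed. The mean of 9 epithelial genes was 8.03, 8.04 and 7.92 in d/d uteri, against 7.59, 7.70 and 7.53 in f/f uteri. Of these 7 had a positive difference, of which Cdh1 and Muc1 passed, and 2 a negative one, Ehf at -0.53 and Cldn3 at -0.18.

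Both measured gland markers fell, and Cxcl15 had the largest difference of all the marker genes. Cxcl15, a chemokine made by uterine glands in the mouse, stood at 1.72, 1.75 and 2.13 in d/d uteri, against 4.76, 5.82 and 6.17 in f/f uteri, a difference of -3.71 (limma adjusted p = 0.0054 over genes). Foxa2, a transcription factor needed for gland formation, stood at 3.31, 2.93 and 3.04 in d/d uteri, against 4.21, 4.53 and 4.76 in f/f uteri, a difference of -1.41 (limma adjusted p = 0.0116 over genes). The d/d mean of Cxcl15 was below the table's median level. The part of tissue make-up and cell cycle state in the IGF gene differences was not tested.

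**Figure D3:**
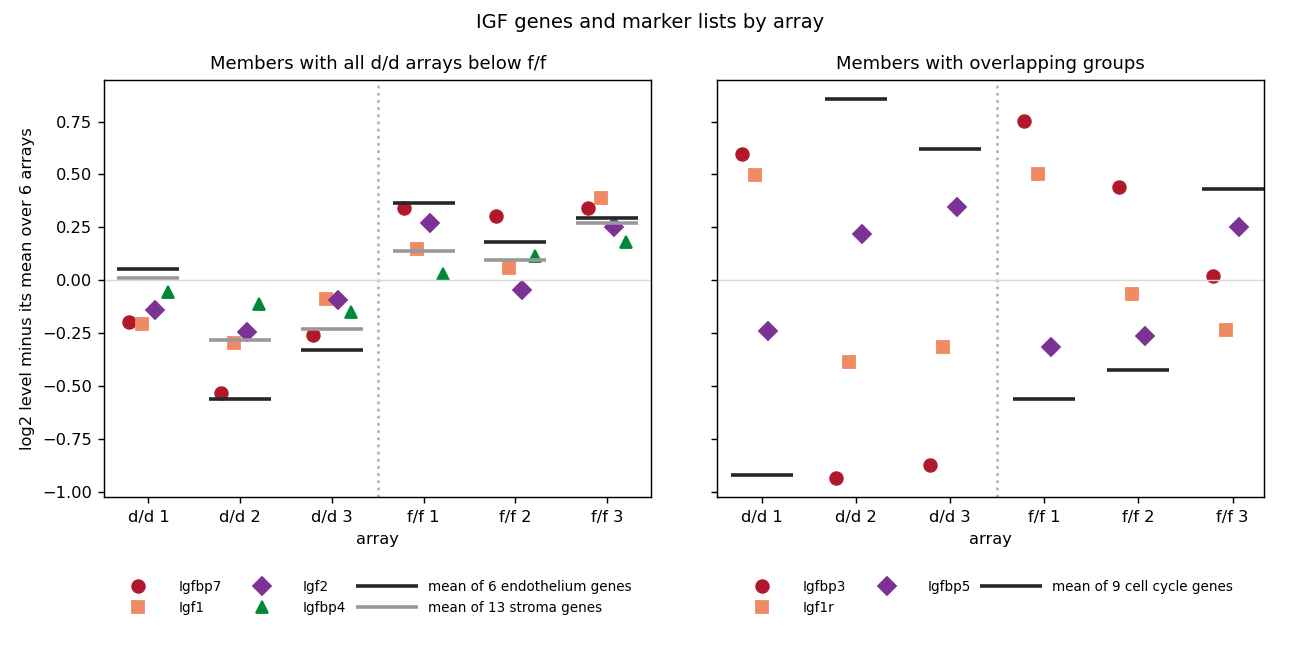
Log2 level minus its mean over the 6 arrays, for 3 d/d arrays (left of the dotted line) and 3 f/f arrays (right), for the brightest probe sets of IGF genes (points) and the mean of marker lists (bars). Left, 4 members whose d/d arrays all lie below f/f, with endothelial and stromal lists; right, Igfbp3 and Igf1r stand high and Igfbp5 and the 9 cell cycle genes low in d/d 1 and f/f 1.

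The genes with profiles most like those of Igfbp7, Igf1 and Igf2, the 3 members of smallest p, were taken from 10554 candidate genes. Candidates had a mean over the 6 arrays above the median level of 2.69, leaving out members and clone or predicted gene symbols. Likeness was measured by the mean absolute difference between centred log2 profiles over the 6 arrays. Closest to Igfbp7 were Ppp1r16b at 0.0241, Gimap6 at 0.0364 and Tes at 0.0411, where the median over all candidates was 0.332. Ppp1r16b had log2 levels of 5.13, 4.78 and 5.01 in d/d uteri, against 5.59, 5.62 and 5.64 in f/f uteri. Closest to Igf1 were Sstr4 at 0.0326, Pdlim7 at 0.0373 and Mmp2 at 0.0382, with a median of 0.223. Sstr4 was near the lower limit for candidates, at 2.60, 2.60 and 2.72 in d/d uteri, against 2.87, 2.87 and 3.19 in f/f uteri, so its d/d mean was below the median level. Closest to Igf2 were Scube2 at 0.0283, Tspan12 at 0.0303 and Cyp7b1 at 0.0382, with a median of 0.202. These distances describe 6 arrays and were not tested.

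Beyond the members, 49 of 60 listed genes of the wider IGF pathway were measured. Of these 1 rose and 0 fell over genes, against 0.630% of all genes called higher and 1.14% called in either direction, and the median difference was -0.02, against -0.01 over all genes. The gene that rose was Stc1, stanniocalcin 1, a secreted inhibitor of the pappalysin proteases that cleave IGF binding proteins. Its brighter probe set stood at 6.49, 7.28 and 6.74 in d/d uteri, against 5.79, 5.50 and 5.73 in f/f uteri. The groups did not overlap, and the difference was 1.16 ± 0.20 (SE), a 2.24-fold higher level (limma adjusted p = 0.0437 over genes and 0.0503 over probe sets).

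The other Stc1 probe set, at means of 1.58 in d/d and 1.60 in f/f, was dimmer than the table's median, and the mean of both gave 0.58 (limma adjusted p over genes 0.141, against 0.0188 to 0.0462 under the other settings that kept all arrays). With 1 array left out Stc1 passed in the fit without d/d 1 (1.34; adjusted p over genes 0.00562). It did not pass without d/d 2, d/d 3, f/f 1, f/f 2 or f/f 3, where the adjusted p ran from 0.0669 to 0.179. The proteases themselves, Pappa and Pappa2, had differences of 0.19 and 0.10 by their brightest probe sets. A less bright Pappa probe set gave 0.64 (95% interval 0.0034 to 1.27) with overlapping groups and did not pass, and a dim one gave -0.04. Of the 11 measured genes of ligand availability 10 did not pass.

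In the list of receptor relatives and adaptors 0 of 12 passed. Irs4, an insulin receptor substrate, had log2 levels of 6.42, 5.94 and 5.99 in d/d uteri, against 5.36, 4.34 and 4.99 in f/f uteri, without overlap. Its difference of 1.22 ± 0.25 (SE) was the largest of the pathway genes by brightest probe set but did not pass (limma adjusted p = 0.0815 over genes). The other Irs4 probe set was dimmer than the table's median and gave 0.09, and the mean of both gave 0.66 (limma adjusted p over genes 0.0882). Ptpn1, a phosphatase that acts on the insulin receptor, had a difference of -0.27, which was -0.14 without d/d 2. Among 6 measured genes of ligand supply 0 passed. Stat5a, a transcription factor downstream of growth hormone, had a difference of -0.52 and Ghr, the growth hormone receptor, -0.32, each with d/d arrays all below f/f arrays. Without f/f 3 that of Stat5a was -0.32. The other probe sets of Stat5a and Ghr were dimmer than the table's median. They gave -0.32 for Stat5a without overlap and -0.18 for Ghr with overlapping groups.

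Of 16 measured genes of PI3K, AKT and their outputs 0 passed, with a median difference of -0.04. Foxo4, a forkhead factor that AKT restrains, had a difference of -0.50 (limma adjusted p = 0.215 over genes). Without d/d 1 it passed at -0.66 (adjusted p over genes 0.0167), and without any 1 of the other arrays its adjusted p was 0.392 to 0.549. The other Foxo4 probe set, near the table's median level, gave 0.047 with overlapping groups, and the mean of both gave -0.22. Pdk1, which in the mouse is the symbol of a pyruvate dehydrogenase kinase and was listed beside Pdpk1, had a difference of 0.40, which was 0.26 without f/f 2. Its less bright probe sets gave 0.22, 0.20 and 0.03 with overlapping groups, and the mean over its probe sets gave 0.21. Of 4 measured CCN genes, whose products share a domain with the binding proteins, 0 passed. Ccn3 had a difference of -0.62 and Ccn4 of 0.40, with overlapping groups. Without f/f 1 that of Ccn3 was -0.35, and that of Ccn4 ran from 0.25 without f/f 2 to 0.66 without f/f 3.

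**Figure D4:**
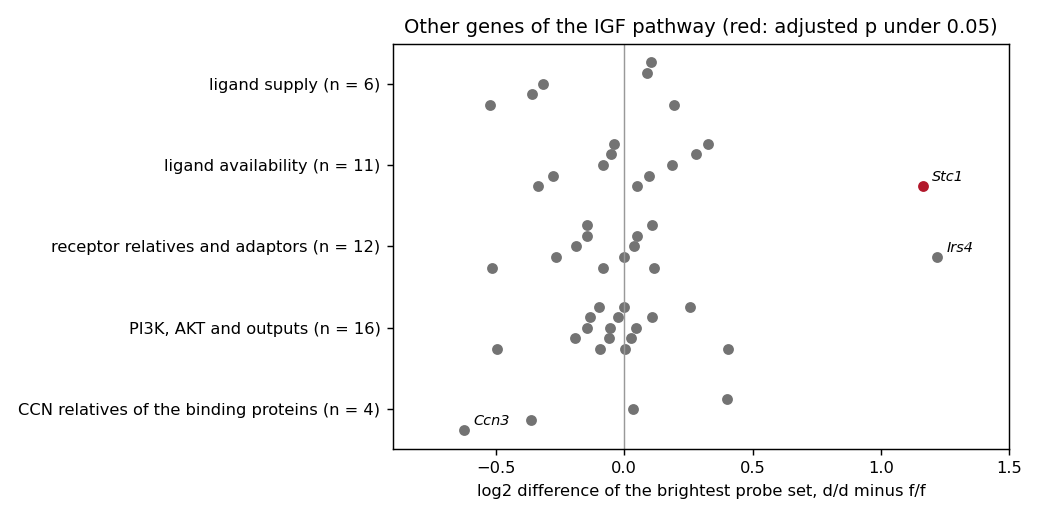
Log2 difference (d/d minus f/f) of the brightest probe set of 49 other genes of the IGF pathway, by list. Stc1 at 1.16 is the 1 gene that passed (red); Irs4 at 1.22 did not.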

How the data were processed

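Uterine RNA was measured on Affymetrix arrays, from 500 ng of total RNA each, per the labels. The authors deposited linear intensity values, 1 for each probe set on each array, made by RMA per the submitters' processing notes, which name no version. RMA compresses differences near background. Log2 was taken with no added constant. Genes were named from the platform annotation, and among probe sets with 1 symbol the one of highest mean stood for its gene. The d/d and f/f arrays were compared by limma 3.58.1 under R 4.3.3 (lmFit, then eBayes without trend; 2-sided; no covariate), adjusting p by Benjamini-Hochberg across the 41420 probe sets or the 16813 genes. With 3 arrays a genotype, their number limits the precision. The comparisons over probe sets and over genes were tested on simulated data. Of 50 simulated 1.5-fold changes, 10 were recovered over probe sets and 22 over genes. At 2-fold, 39 of 50 were recovered in each. False calls numbered 8 over probe sets and 10 over genes.

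The members and lists were chosen with earlier results of these data known. Named were all members, the pathway genes past the threshold or else the 2 of smallest p per list, and the 3 nearest profiles. Pappa, Pappa2, Arid1a, Esr1, Pgr and marker genes were added outside that rule. Alternatives were a replicate block, trend with robust variance, array weights, repeated quantile normalization, median centring, leaving out dim (under the 40th percentile) or _x_at probe sets, each array left out, a threshold of 0.10 and averaging a gene's probe sets.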

Additional observations from a re-analysis of the deposited data

How the results depend on the processing

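The call of Igfbp7 among the member genes was kept under the trend, array weights, quantile, centring, dim probe set, _x_at and looser threshold settings and was lost when a gene's probe sets were averaged (0 of 9 genes; Igfbp7 at an adjusted p of 0.0615). Replicate numbers were not used as pairs, since correlations of deviations between arrays of equal number were 0.461, 0.0228 and 0.178, and d/d 2 went best with f/f 3 (0.299). With the replicate block 574 probe sets and 457 genes passed, and 2 member probe sets, both of Igfbp7, in place of 1; of the named pathway genes Irs4 and Ccn3 then passed (adjusted p 0.0123 and 0.0269). Array weights gave 329 probe sets and 381 genes, and the threshold of 0.10 gave 462 and 403. With each array left out in turn the counts ranged from 37 to 971 probe sets, 26 to 821 genes, 0 to 4 member probe sets and 0 to 2 member genes, the upper ends all without d/d 1. Directions turned only for differences that passed in no setting. With each array left out in turn, Igf1r by its brightest probe set ranged from -0.42 to 0.083 and Igf2r from -0.21 to 0.037. The dimmer Igf1r probe sets ranged from -0.26 to 0.27 (1428967_at, which gave -0.043 with array weights), from -0.042 to 0.25 (1446303_at) and from -0.069 to 0.11 (1452108_at). Igfbp7 probe set 1437804_at ranged from -0.084 to 0.041, and Igfbp5 gave -0.15 with its probe sets averaged. The causes of these changes between settings were not tested. Probe sets near background limit what can be seen.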
